A study of Mus musculus with 4 samples.

Results

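Proteins that a liver cell secretes or sends to its membranes are threaded into the endoplasmic reticulum (ER) through the SEC61 channel, folded there by chaperones and oxidised by disulfide isomerases. Chains that fail to fold are passed back to the cytosol and degraded. When unfolded chains build up, the sensors IRE1, ATF6 and PERK start the unfolded protein response, which raises the transcripts of many of these chaperones and degradation factors. Hepatocytes secrete most plasma proteins and hold a large ER.

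The 34 genes described here are members of this machinery. They were listed by symbol for their roles in it, with earlier results of these data known, and found through their Entrez gene numbers. All 34 were found among the 17543 genes of the 4 deposited tables, and all 34 had enough reads to enter the test of 12837 genes. The members were a single transcript in 24 cases and several transcripts in 10.

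Transcripts were measured by RNA sequencing in liver of C57BL/6 mice that were wild type (WT) or homozygous for the K307R substitution in Ezh2, written Ezh2(K307R/K307R). Ezh2 encodes the histone methyltransferase of PRC2, a Polycomb complex. Each genotype had 2 livers, replicates 1 and 2, and the labels state neither sex, age nor collection time, nor whether the livers of a genotype come from separate animals, and the tests therefore describe the scatter among these 4 samples, which may be technical. The livers were frozen before RNA was taken, and the labels name no treatment.

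The expected counts of a liver summed to between 18602928 and 20044832. The members held 0.845% and 1.05% of them in the WT livers and 0.787% and 0.991% in the K307R livers. The hepatocyte list, 10 genes such as Alb and Ttr, had a summed level of 160115 and 158469 CPM (expected counts scaled to a common library size) in WT and of 148743 and 149059 CPM in K307R, lower in both K307R livers. Of these genes 7 of 10 had a log2 fold change below 0 (48.9% of all genes tested) and 0 were called by edgeR (2.86%). Of 9 stellate cell and fibroblast markers, Dcn and Colec11 rose and Col1a1 and Col1a2 fell. Of 10 Kupffer cell and macrophage markers 1 was below 0 and 9 above, with 0 called. At an unadjusted p under 0.05 (edgeR), 3 of these 10 were higher (8.5% of all genes tested) and 0 lower (8.31%). Of 9 endothelial markers 1 was below 0 and 8 above, with 0 called, and at that p 2 were higher and 1 lower. The part of these cell types in the differences below was not tested. Ezh2 itself was at 3.36 and 3.93 CPM in WT and at 3.45 and 2.56 CPM in K307R, which does not check a point mutation. Genotype and sex-chromosome transcripts coincided: Xist, the RNA of the inactive X, had 6 and 6 reads in WT and 6172 and 11201 in K307R, and 4 Y-linked genes had 2732 and 2551 reads in WT and 0 and 0 in K307R. The clock activator Arntl was at 1.10 and 1.18 CPM in WT and at 12.3 and 23.7 CPM in K307R. For every difference below, genotype and the sex-chromosome pattern cannot be told apart, and the part of the clock difference was not tested. As in any bulk tissue, fewer cells of a type and less RNA per cell cannot be told apart either.

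The promoters of many members carry a known binding site of the response. The ER stress response element (ERSE) is CCAAT, 9 bases of any kind, then CCACG, and is bound by NF-Y and by ATF6 or XBP1. RefSeq promoter windows (GRCm38.p6, 250 bases before to 50 after each start) were found for 28 of the 34 members, and 9 of these held an ERSE on either strand, against 0.137% of the 27025 genes with a window. The members are textbook genes of this response, so this share describes the list and is not a result of these livers. Of the 28 members 19 had no ERSE in their windows, among them Fkbp11 and Sec61b, the members called below. The part of the element in any difference below was not tested. The matches are shown for reference. Each is written 5′ to 3′ on the strand of the element with 5 bases on either side, and capitals mark the fixed letters.
Hspa5: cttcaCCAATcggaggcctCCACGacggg
Hsp90b1: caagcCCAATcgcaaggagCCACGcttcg
Hsp90b1: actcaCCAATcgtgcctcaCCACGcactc
Calr: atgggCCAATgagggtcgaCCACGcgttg
Canx: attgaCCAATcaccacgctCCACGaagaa
Dnajc3: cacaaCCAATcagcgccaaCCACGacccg
Creld2: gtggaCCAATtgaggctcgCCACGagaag
Pdia6: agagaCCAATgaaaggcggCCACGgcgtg
Syvn1: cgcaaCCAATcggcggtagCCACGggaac
Derl3: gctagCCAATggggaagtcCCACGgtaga
The Hspa5 element lies at chr2:34772025-34772043, 65 bases before the start, and that of Syvn1 at chr19:6046532-6046550, 44 bases before it. The related ERSE-II, ATTGG, 1 base of any kind, then CCACG, was found in Herpud1 (chr8:94386377-94386387) and in Dnajb11, against 0.0444% of all genes.
Herpud1: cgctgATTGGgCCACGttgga

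Between the genotypes 2 of the 34 members passed the test, both lower in K307R, and 0 rose. These were the prolyl isomerase gene Fkbp11 and the channel subunit gene Sec61b. Over all genes tested 1.47% were called lower, 1.39% higher and 2.86% in either direction, with called meaning an adjusted p under 0.05 (edgeR quasi-likelihood, Benjamini-Hochberg over all genes). DESeq2 also called 2 members lower and 0 higher. At an unadjusted p under 0.05, 5 members were lower (8.31% of all genes) and 0 higher (8.5%). The members had a median log2 fold change of -0.25, against 0.01 over all genes tested, and 23 of the 34 were below 0 (48.9% of all genes). Without K307R replicate 1 the median was 0.03 and 16 were below 0, and without K307R replicate 2 the median was -0.40 and 31 were below 0. The values of the 2 K307R livers stood below both WT livers for 14 members (23.4% of all genes) and above them for 2 (25.2%).

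**Figure D1:**
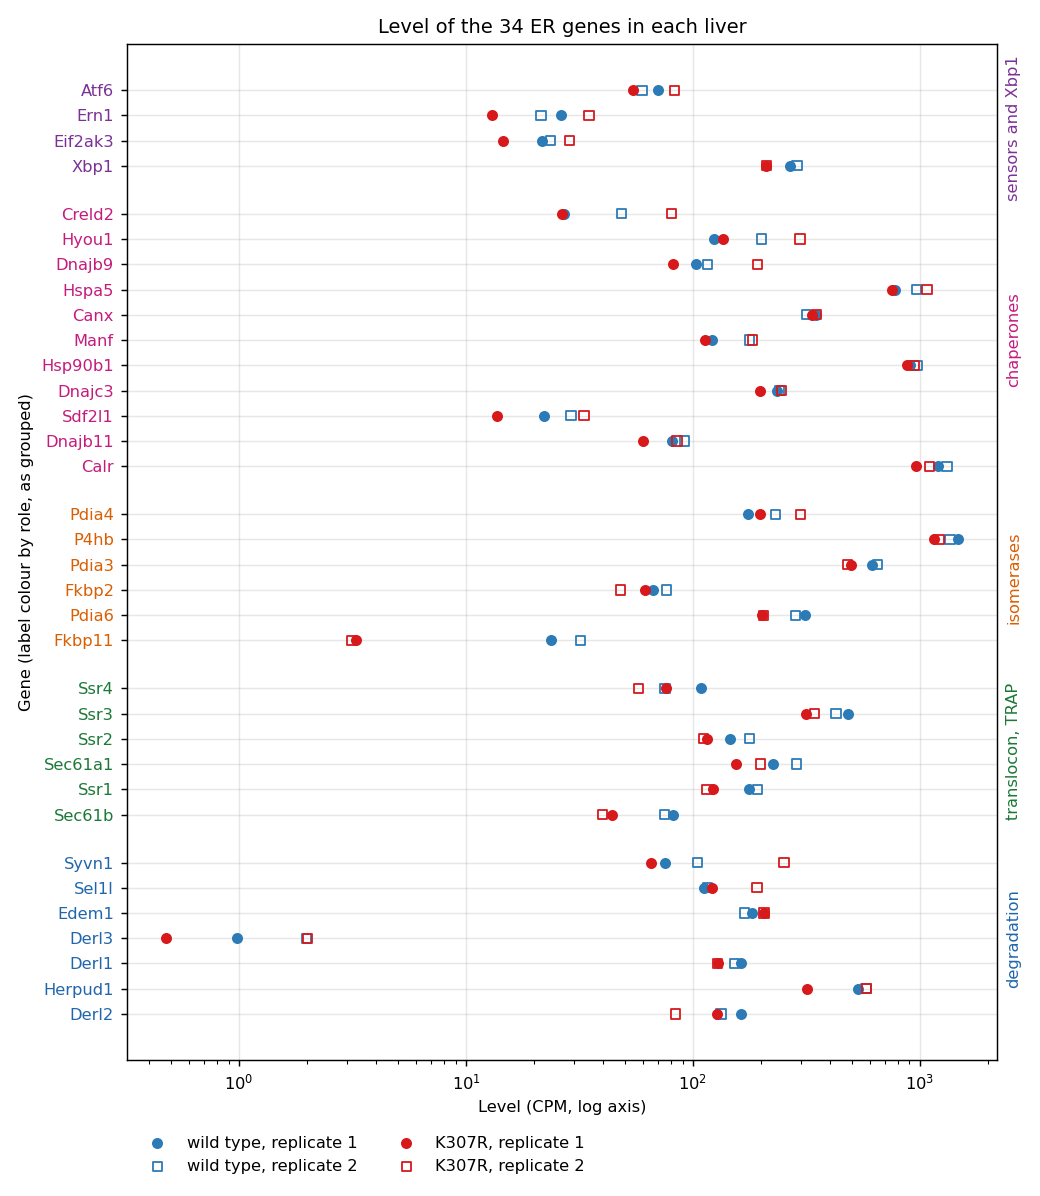
Level of each of the 34 members in each liver, in CPM on a log axis, with genes grouped by role; circles are replicate 1, squares replicate 2, blue WT and red K307R. Fkbp11 stands apart by genotype, and the translocon genes other than Ssr4, which overlaps, lie to the left in both K307R livers. Derl3, Syvn1, Creld2 and Ern1 have the widest ratios between the K307R livers.

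Fkbp11 encodes an ER-membrane peptidyl-prolyl isomerase found mainly in secretory cells. Its gene (Entrez 66120) lies on chromosome 15 from 98724368 to 98728198 (GRCm38, which is mm10) and was listed with 1 transcript of 799 bases. Its level was 23.8 and 32.0 CPM in the WT livers and 3.29 and 3.12 CPM in the K307R livers. The genotypes did not overlap, and the gap between them was larger than the gap within either. The gene fell from 27.9 ± 5.78 to 3.20 ± 0.119 CPM (mean ± SD, n = 2 each), or by 3.12 on the log2 scale (95% interval -3.68 to -2.56, SE 0.24; edgeR adjusted p = 0.00141), which is 8.69-fold lower. The second prolyl isomerase of the list, Fkbp2, had 66.5 and 76.6 CPM in WT and 61.5 and 47.9 CPM in K307R (-0.39, edgeR adjusted p = 0.400). Across the 15 other settings tried, Fkbp11 was called lower in all, with log2 fold changes between -3.32 and -2.76.

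The outer RefSeq start of Fkbp11, at the end of the gene coordinates given above, has neither CCAAT nor CCACG, on either strand, in the 250 bases before it. This says only that these letters are not in this window. A second RefSeq start within the gene has both. Which of these starts the listed transcript uses was not checked. The 250 bases before the outer start (chr15:98728199-98728448, minus strand) and those before Hspa5 (chr2:34771840-34772089, plus strand) are shown for comparison, with CCAAT and CCACG on either strand in capitals. Over all 32851 windows of 300 bases, CCACG was found in 32.8% and CCAAT in 37.4%.
Fkbp11: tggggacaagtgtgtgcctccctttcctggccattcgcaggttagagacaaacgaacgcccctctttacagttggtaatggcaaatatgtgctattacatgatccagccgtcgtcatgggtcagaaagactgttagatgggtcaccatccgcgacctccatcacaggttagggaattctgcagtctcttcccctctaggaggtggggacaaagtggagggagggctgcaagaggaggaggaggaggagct
Hspa5: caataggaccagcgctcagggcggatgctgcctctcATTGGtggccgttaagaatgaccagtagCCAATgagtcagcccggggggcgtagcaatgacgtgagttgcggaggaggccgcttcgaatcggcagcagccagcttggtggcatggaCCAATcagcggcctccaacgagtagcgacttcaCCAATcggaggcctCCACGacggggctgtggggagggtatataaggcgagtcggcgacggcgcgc

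B and plasma cells, which hold a large ER and express Fkbp11, left few reads. The summed level of the 11 marker genes was 177 and 200 CPM in WT and 309 and 322 CPM in K307R, nearly all of it Sdc1, a proteoglycan that hepatocytes express too, at 171 and 190 against 291 and 316 CPM. Cd79a, Cd79b and Ms4a1 were each at or below 2.08 CPM in every liver, Tnfrsf17 was at 0 in 1 liver of each genotype, and 0 of the 9 markers tested were called by edgeR in either direction. Jchain was at 9.81 CPM in K307R replicate 1 and between 1.10 and 1.56 CPM in the other livers. Of 11 genes of pancreatic acinar cells, 9 had no reads listed, Cela1 was at 11.3 and 6.06 CPM in WT and 5.52 and 4.25 CPM in K307R, and Cela2a fell from 5.67 and 5.59 to 0.849 and 0.409 CPM (log2 fold change -3.15, edgeR adjusted p = 0.0116). The part of acinar RNA in the Fkbp11 result was not tested.

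Genes of the translocon and of the associated TRAP complex, whose subunits Ssr1 to Ssr4 help nascent chains into the channel, all had a lower mean level in K307R. Their summed level was 1217 and 1234 CPM in WT and 828 and 867 CPM in K307R. Of the 6 genes 1 passed the test and the other 5 had log2 fold changes between -0.63 and -0.46, so that the list median was -0.52. Both K307R livers lay below both WT livers for 5 of the 6 (23.4% of all genes tested). The same held for 5 of the 6 disulfide and prolyl isomerase genes. Under every setting tried, the estimates of all 6 stayed below 0.

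Sec61b, the small beta subunit of the channel (Entrez 66212, chromosome 4 from 47474661 to 47483233), was at 81.8 and 75.0 CPM in WT and at 44.0 and 40 CPM in K307R. It fell by 0.90 on the log2 scale (SE 0.18, edgeR adjusted p = 0.0469), that is 1.87-fold, and livers of a genotype were close to each other. This p stood next to the threshold, and the call was lost in 10 of 15 other settings, among them those without WT replicate 1 (-0.84, adjusted p = 0.0845), K307R replicate 1 (-0.97, 0.103) or K307R replicate 2 (-0.83, 0.176). Sec61a1, which forms the pore, was at 224 and 285 CPM in WT and at 155 and 198 CPM in K307R (-0.53, edgeR adjusted p = 0.324). Its genotypes did not overlap, but the livers within each differed 1.27-fold.

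Ssr1 was at 176 and 193 CPM in WT and at 122 and 115 CPM in K307R (-0.63 on the log2 scale with an SE of 0.20, edgeR adjusted p = 0.159). Ssr2 was at 146 and 178 against 115 and 112 CPM (-0.51, 0.261), and Ssr3 at 481 and 427 against 315 and 344 CPM (-0.46, 0.358). Ssr4, on the X chromosome, was at 109 and 75.4 CPM in WT and at 76.4 and 57.4 CPM in K307R, the only member of the group whose genotypes overlapped (-0.46, 0.407). At unadjusted p values of 0.0135 for Ssr1 and 0.038 for Ssr2 these differences did not pass the correction over all genes.

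**Figure D2:**
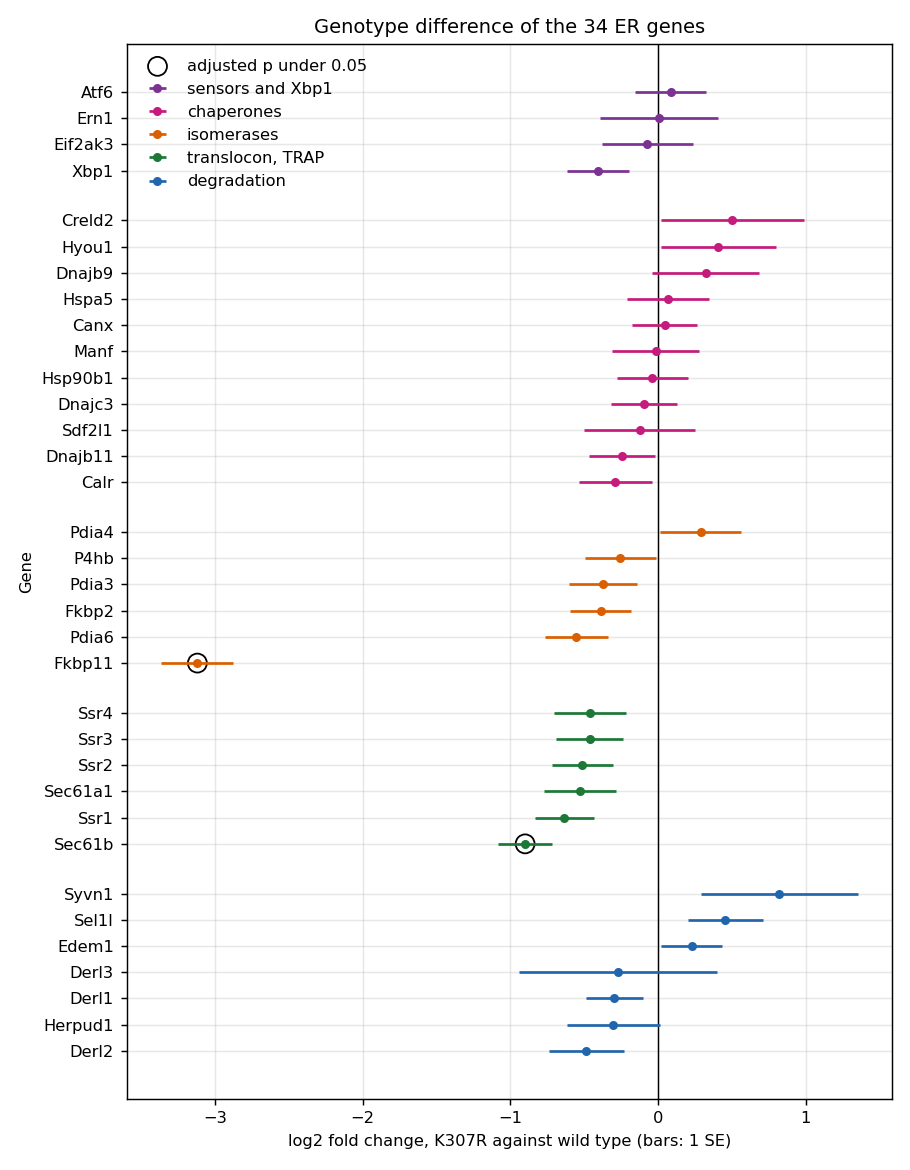
Log2 fold change, K307R against WT, of the 34 members grouped by role, with bars of 1 SE; circled points have an adjusted p under 0.05 (Fkbp11 at -3.12 and Sec61b at -0.90). All 6 translocon points lie left of 0, while the chaperones are spread around it.

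Short transcripts as a whole were lower in K307R. The 938 genes tested with transcripts of up to 1000 bases had a median log2 fold change of -0.25, the 2997 between 1000 and 2000 bases one of -0.05, the 5289 between 2000 and 4000 bases one of 0.02 and the 3613 longer ones one of 0.09. The K307R livers differed from each other in the same way: the medians of replicate 2 against replicate 1 were -0.25, -0.11, 0.02 and 0.13 (log2) over these classes, against -0.084, 0.0011, 0.025 and 0.0078 in WT. Sec61b (552 bases), Fkbp2 (650), Ssr4 (760) and Fkbp11 (799) are the 4 members of the shortest class. With this trend taken into the fit, a setting added once the trend had been noticed, Fkbp11 was still called (-2.94, edgeR adjusted p = 0.00335) and Sec61b was not (-0.63, 0.114). Ssr1, at 9306 bases the longest member, then had a log2 fold change of -0.72 (0.121), and the translocon median was -0.53.

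**Figure D3:**
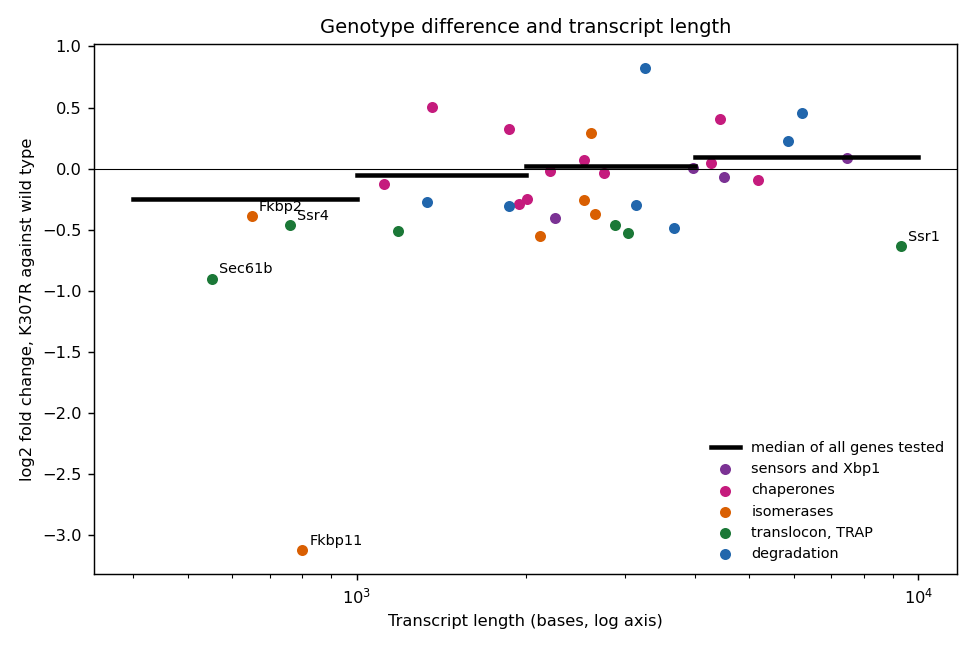
Log2 fold change of the 34 members against transcript length in bases on a log axis; black lines are the medians of all genes tested up to 1000 bases, from 1000 to 2000, from 2000 to 4000 and above 4000 bases (-0.25, -0.05, 0.02 and 0.09). Translocon genes lie below the line of their length class, as do members of other groups such as Pdia6, Derl2 and Xbp1. Syvn1 and Creld2 lie above theirs.

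The chaperones, which hold unfolded chains and help them fold, showed no called change. Of 11 genes 0 rose and 0 fell, the median log2 fold change was -0.02, and 0 had an unadjusted p under 0.05. That median was -0.39 without K307R replicate 2 and 0.29 without K307R replicate 1. Hspa5, the ER HSP70 also called BiP, was at 776 and 967 CPM in WT and at 753 and 1074 CPM in K307R. Each genotype had a lower and a higher liver, and the log2 fold change was 0.07 with a 95% interval of -0.58 to 0.72 (edgeR adjusted p = 0.934). With 2 livers a genotype, a change in either direction within that interval is compatible with these values. Hsp90b1, the ER HSP90, was at 901 and 971 CPM in WT and at 879 and 944 CPM in K307R (-0.04, interval -0.59 to 0.51). The lectin chaperones that bind glycoproteins were Calr at 1208 and 1317 against 963 and 1106 CPM (-0.29, edgeR adjusted p = 0.620) and Canx at 348 and 317 against 335 and 351 CPM (0.05, 0.945). The division of Canx reads among its 3 listed transcripts varied widely within genotypes, with 46.3% and 89.4% on the same transcript in the K307R livers, and only the gene sum is used here.

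The co-chaperones and small stress-induced proteins varied more between livers. Creld2 was at 27.0 and 48.3 CPM in WT and at 26.5 and 80.5 CPM in K307R, and Hyou1, a nucleotide exchange factor for Hspa5, at 124 and 201 against 135 and 297 CPM. Dnajb9, a J protein that holds IRE1 in check, was at 103 and 116 CPM in WT and at 81.9 and 192 CPM in K307R. In these 3 genes the highest value came from K307R replicate 2, while K307R replicate 1 was within or below the WT range. Sdf2l1 was at 22.0 and 29.0 against 13.7 and 33.1 CPM, and Manf at 122 and 178 against 114 and 183 CPM. Their log2 fold changes were 0.50 for Creld2, 0.41 for Hyou1, 0.33 for Dnajb9, -0.13 for Sdf2l1 and -0.02 for Manf, with edgeR adjusted p values between 0.662 and 0.988. The J proteins Dnajb11, at 80.6 and 91.6 against 60.3 and 85.0 CPM (-0.25), and Dnajc3, at 234 and 241 against 198 and 246 CPM (-0.10), also overlapped between the genotypes.

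The disulfide isomerases, which form and rearrange disulfide bonds, had mostly lower values in K307R without passing the correction. Pdia6 was at 312 and 284 CPM in WT and at 201 and 205 CPM in K307R, or -0.55 on the log2 scale with an SE of 0.21 (edgeR adjusted p = 0.242). Pdia3, which works with Calr and Canx on glycoproteins, was at 613 and 653 against 498 and 480 CPM (-0.37, 0.472), and P4hb, the classical protein disulfide isomerase, at 1471 and 1358 against 1158 and 1213 CPM (-0.25, 0.661). In these 3 genes both K307R livers lay below both WT livers (23.4% of all genes tested). Pdia4 went the other way, with 174 and 230 CPM in WT and 198 and 297 CPM in K307R (0.29, 0.659).

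Per transcript length, the members covered a wide range of levels. Averaged over the 4 livers, Calr was the highest at 591 FPKM (fragments scaled by transcript length and library size), followed by P4hb at 508, Hspa5 at 352, Hsp90b1 at 333 and Herpud1 at 269 FPKM. Fkbp11 was at 27.4 and 43.3 FPKM in WT and at 4.28 and 4.18 FPKM in K307R. The sensors were among the lowest, with Atf6 at 8.83, Ern1 at 5.95 and Eif2ak3 at 4.92 FPKM, and Derl3 was last at 1.04 FPKM.

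The sensors themselves did not pass the test. Ern1, which encodes IRE1, was at 26.3 and 21.4 CPM in WT and at 13.1 and 34.8 CPM in K307R, so that the K307R livers enclosed the WT livers (log2 fold change 0.01, 95% interval -0.92 to 0.94, edgeR adjusted p = 0.995). Atf6 was at 70.0 and 59.7 against 54.4 and 83.3 CPM (0.09, interval -0.47 to 0.65, 0.899). Eif2ak3, which encodes PERK, was at 21.6 and 23.6 against 14.5 and 28.5 CPM (-0.07, interval -0.78 to 0.64, 0.938). In all 3 genes K307R replicate 1 was the lowest and K307R replicate 2 the highest of the 4 livers.

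Xbp1 encodes the transcription factor that IRE1 activates by cutting a short segment out of its mRNA. The deposited tables list both forms of this transcript, of 2264 and 2238 bases, which differ by 26 bases. A segment of that length between a pair of CNGCAGN sites, the sequence that IRE1 recognises, was found at 2 places in the coding sequence. These were in exon 1 at chr11:5521116-5521141 and in exon 4 at chr11:5524279-5524304 (mm10, plus strand). With both in place the reading frame runs for 267 codons. It runs for 73 without the exon 1 segment and for 371 without the exon 4 segment. The exon 4 segment, whose removal lengthens the frame, was taken as the one that tells the forms apart. It is shown in capitals with 20 bases on either side.
Xbp1: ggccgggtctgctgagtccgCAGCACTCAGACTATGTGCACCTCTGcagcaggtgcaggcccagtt

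The level of Xbp1 (Entrez 22433, chromosome 11 from 5520641 to 5525993) was 269 and 288 CPM in WT and 209 and 212 CPM in K307R. The genotypes did not overlap, but the gene did not pass the test (-0.40 on the log2 scale with an SE of 0.21, edgeR adjusted p = 0.394). The spliced form took 36.9% and 46.9% of the Xbp1 expected counts in WT and 37.4% and 33.4% in K307R, or 41.9% ± 7.06 against 35.4% ± 2.84 (mean ± SD, n = 2 each). WT replicate 1 lay between the K307R livers, so the shares overlapped, and the difference of -6.54 percentage points was smaller than the spread of the WT livers. With 2 livers against 2 an exact permutation test cannot go below a two-sided p of 0.333, and none was run. In CPM the spliced form was at 99.3 and 135 in WT and at 78.1 and 70.7 in K307R, and the unspliced form at 169 and 153 in WT and at 131 and 141 in K307R. The division is RSEM's estimate and rests on the few reads over the segment, so that no counting interval is given for it.

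**Figure D4:**
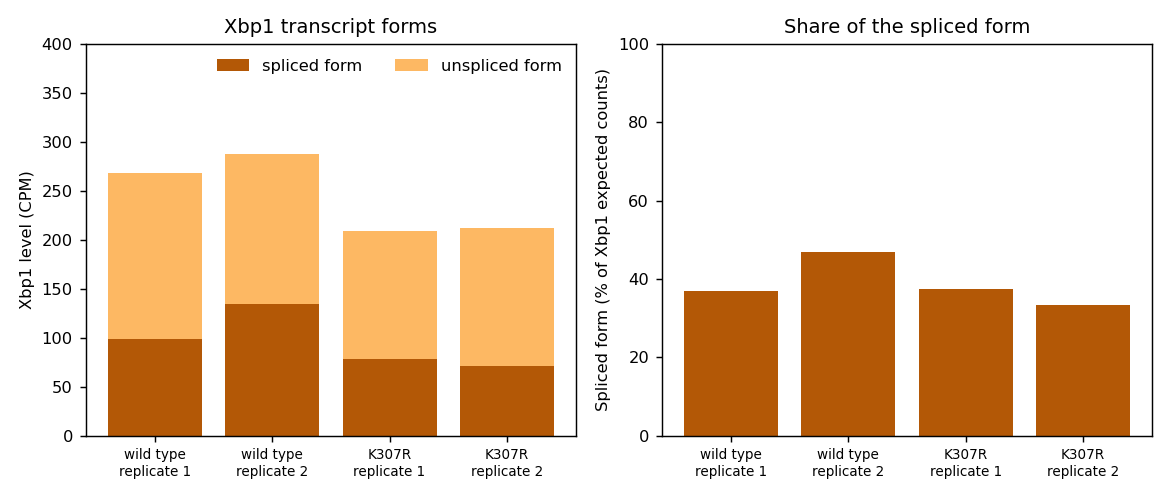
Xbp1 in each liver: left, level in CPM divided into the spliced and unspliced forms by RSEM's expected counts; right, the spliced form as a percentage of Xbp1 expected counts. The spliced share was 36.9% and 46.9% in WT and 37.4% and 33.4% in K307R, which overlap.

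Degradation factors take unfolded chains out of the ER. Of 7 genes 0 passed the test, and the signs were mixed. Syvn1, the ubiquitin ligase HRD1 of this pathway (chromosome 19 from 6046576 to 6053718), was at 75.0 and 104 CPM in WT and at 65.3 and 252 CPM in K307R. The K307R livers were at both ends, and its difference was 0.82 on the log2 scale with an SE of 0.53 (edgeR adjusted p = 0.497). Without K307R replicate 1 Syvn1 was called higher (1.49, adjusted p = 0.0309), and without K307R replicate 2 its value was -0.46 (0.610). Both listed Syvn1 transcripts were higher in K307R replicate 2, with 2579 and 2348 expected counts against 725 and 505 in replicate 1.

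Sel1l, the partner of Syvn1, was at 112 and 116 CPM in WT and at 121 and 192 CPM in K307R (0.46, edgeR adjusted p = 0.428). Edem1, a lectin that picks out misfolded glycoproteins, was at 182 and 169 against 205 and 205 CPM (0.23, 0.639). Both stood higher in both K307R livers, the 2 members of the 34 for which this held (25.2% of all genes tested). Herpud1, an organiser of the ligase complex, was at 531 and 578 CPM in WT and at 318 and 581 CPM in K307R (-0.30, 0.695). Of the derlins, which form the exit channel with the ligase, Derl1 was at 163 and 152 against 128 and 128 CPM (-0.30, 0.506) and Derl2 at 163 and 133 against 128 and 83.6 CPM (-0.49, 0.398). Derl3, known from strongly secretory cells, had only 17 and 42 reads in WT and 9 and 39 in K307R, and its log2 fold change of -0.27 had a 95% interval of -1.82 to 1.28.

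Many members differed between the K307R livers. K307R replicate 2 was over 1.5 times replicate 1 for 13 members, against 9.32% of all genes tested, and the reverse held for 1, Derl2. The 13 were Derl3 (4.18-fold), Syvn1 (3.86), Creld2 (3.04), Ern1 (2.67), Sdf2l1 (2.41), Dnajb9 (2.34), Hyou1 (2.20), Eif2ak3 (1.97), Herpud1 (1.82), Manf (1.61), Sel1l (1.58), Atf6 (1.53) and Pdia4 (1.502). They include all 3 sensors and no translocon gene. In WT, replicate 2 was over 1.5 times replicate 1 for 3 members, Derl3, Creld2 and Hyou1 (13.8% of all genes). K307R replicate 2 also differed from replicate 1 by transcript length, as given above, and the part of that in these ratios was not tested. This contrast within a genotype was noticed in the data, each side is 1 liver, and no test was made of it.

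**Figure D5:**
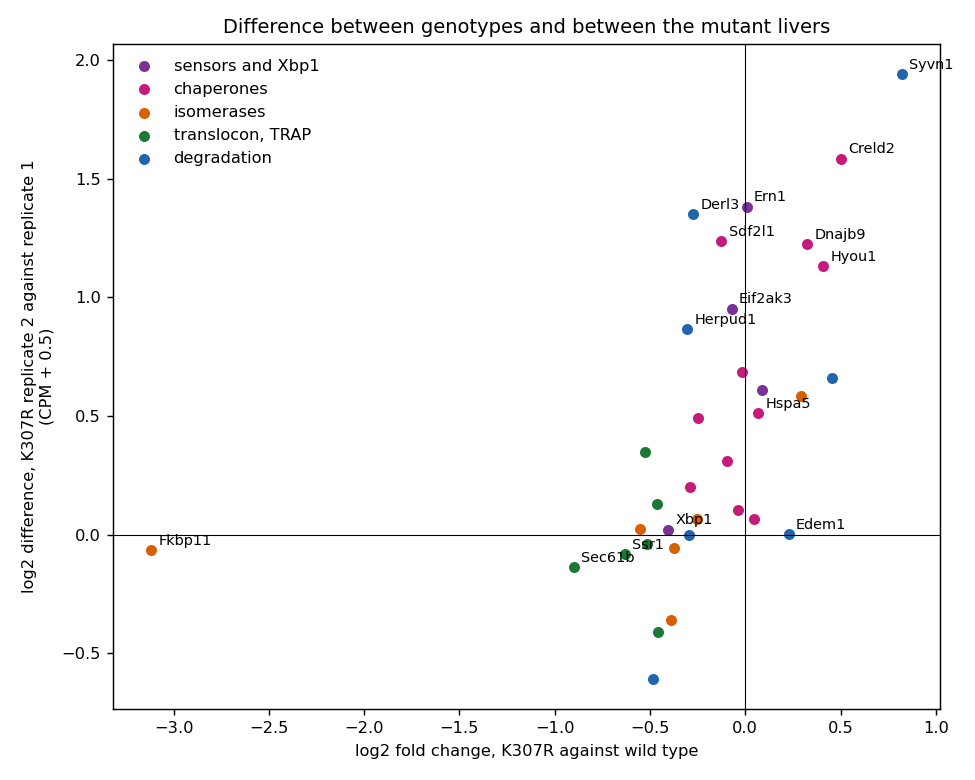
Each of the 34 members by its log2 fold change between genotypes (horizontal) and the log2 difference of K307R replicate 2 from K307R replicate 1 (vertical, on CPM + 0.5), coloured by role. Syvn1 (0.82) and Creld2 (0.50) lie high and furthest right, Ern1 (0.01) high and near the middle, and Fkbp11 (-3.12) and Sec61b (-0.90) furthest left and near 0 on the vertical axis.

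All 9 members with an ERSE in their window were higher in K307R replicate 2 than in replicate 1, and 3 of them, Derl3, Syvn1 and Creld2, by over 1.5 times. Of the same 9 genes, 7 were also higher in WT replicate 2 than in WT replicate 1, and over all genes tested 50% were higher in K307R replicate 2. Of the 19 members whose window had none, 12 were higher and 7 over 1.5 times. Between genotypes the members with an ERSE had log2 fold changes from -0.55 (Pdia6) to 0.82 (Syvn1), with a median of -0.04 and 0 called. Ern1, Sdf2l1 and Dnajb9, which also varied widely between the K307R livers, had no ERSE in their windows.

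Other genes of these pathways, 122 symbols of which 121 were found and tested, gave 1 rise and 3 falls, a share near the 2.86% called over all genes tested. All lists of other genes, here and below, were drawn up with earlier results of these data known. The shares over all genes therefore describe these lists and do not test them. At an unadjusted p under 0.05 (edgeR), 24 were lower (8.31% of all genes) and 4 higher (8.5%), and 93 were below 0 (48.9%). Both K307R livers lay below both WT livers for 50 (23.4%) and above them for 14 (25.2%). In the arm of PERK, ATF4 and CHOP, Vldlr, a lipoprotein receptor, rose from 1.27 and 1.99 to 20.2 and 12.1 CPM (log2 fold change 3.29, edgeR adjusted p = 0.00539), a call lost in limma on log2(FPKM + 1) (1.30, 0.0566) and on log2(FPKM + 0.1) (2.83, 0.0578). Asns, the asparagine synthetase that ATF4 drives, fell from 2.08 and 8.76 to 0.265 and 0.102 CPM (-4.85, 0.0303). The WT livers themselves differed in Asns, and its value was -5.54 without WT replicate 1 and -3.47 without WT replicate 2, while the call was lost without K307R replicate 1 (-5.65, 0.0509) or 2 (-4.33, 0.0903), in limma-voom (-4.55, 0.0952) and in limma on log2(FPKM + 1) (-1.62, 0.173) or log2(FPKM + 0.1) (-3.54, 0.0960). Of the 14 genes of this arm 1 rose and 1 fell (2.86% of all genes called in either direction), with a median of -0.47. Below 0 were 11 of the 14 (48.9% of all genes). At an unadjusted p under 0.05 (edgeR), 5 were lower (8.31%) and 3 higher (8.5%). Both K307R livers lay below both WT livers for 7 (23.4%) and above them for 3 (25.2%). Ddit3, which encodes CHOP and is named here after its values were seen, was at 3.24 and 5.49 CPM in WT and at 6.63 and 9.41 CPM in K307R (0.87, 0.243).

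Among 30 further folding enzymes 1 fell and 0 rose, with a median of -0.17. The one that fell was the disulfide isomerase gene Pdia5, at 91.7 and 93.2 CPM in WT and at 50.1 and 50.6 CPM in K307R (-0.88, edgeR adjusted p = 0.0464). This call was lost without any 1 of the 4 livers, at values between -0.89 and -0.87 and adjusted p between 0.0652 and 0.141, and with total-count scaling, limma-voom, the replicate block and both FPKM fits (adjusted p between 0.0547 and 0.105). Among 23 further degradation factors Edem2, a mannosidase relative of Edem1, fell from 102 and 129 to 53.3 and 54.5 CPM (-1.10, 0.0346), and 0 rose. The call was lost without WT replicate 2 (-0.93, 0.0605), K307R replicate 1 (-1.09, 0.0958) or K307R replicate 2 (-1.12, 0.0958), with total-count scaling (-1.04, 0.0675) and in both FPKM fits (0.104 and 0.106).

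The oligosaccharyltransferase, which adds glycans to chains as they leave the channel, had mostly lower values in K307R. Of its 12 genes 0 passed the test, 7 were lower at an unadjusted p under 0.05 (8.31% of all genes) and 11 had both K307R livers below both WT livers (23.4%), with a median of -0.54 and a summed level of 1332 and 1375 CPM in WT against 986 and 1025 CPM in K307R. Its smallest adjusted p was that of Tmem258 (-0.86, edgeR adjusted p = 0.0550), followed by Krtcap2 (-0.70, 0.0943) and Tusc3 (-0.94, 0.103). Of 19 further genes of targeting, translocation and signal peptidase 0 passed, 18 had values below 0 (48.9% of all genes) and the median was -0.27. Sec61g, the third channel subunit, was at 50.2 and 33.4 CPM in WT and at 23.8 and 20.6 CPM in K307R (-0.91, 0.101). The COPII coat, which carries folded proteins out of the ER, had 0 of 12 called (median -0.19, smallest adjusted p 0.0567, Sec13), and the ATF6-like factors and their proteases 0 of 11 (median -0.01). DESeq2 and the edgeR fit with no filter on low counts called Tmem258 (adjusted p = 0.0148 and 0.0243), Sec61g (0.0312 and 0.0349) and Sec13 (0.0102 and 0.0243) lower, while with the length trend in the fit their values were -0.53 (0.200), -0.71 (0.152) and -0.78 (0.0915).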

How the data were processed

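RNA of 4 livers, 2 WT and 2 Ezh2(K307R/K307R), was sequenced. The authors deposited per-transcript expected counts and FPKM values, as the file headers name them; HISAT, Bowtie2, RSEM and mm10 are listed in the submitters' processing notes, without versions or roles. Expected counts, 18602928 to 20044832 per liver, were summed per gene and the sums were rounded. The 41 genes without a name (0.0377% to 0.0428% of counts) were left unnamed. Genes passing edgeR's filter on low counts were tested with edgeR 4.0.16 in R 4.3.3 (TMM scaling, quasi-likelihood test, Benjamini-Hochberg over 12837 genes, common BCV 0.217, 2 residual degrees of freedom). CPM are TMM-scaled. FPKM serve to compare genes.

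The alternatives were total-count, RLE or upper-quartile scaling, DESeq2 1.42.0, limma 3.58.1 (voom, and log2 FPKM with pseudocounts of 1 and 0.1), 2 other filters, a replicate block, each liver left out, and, added after the data were seen, a transcript-length trend. The scripts were tested on simulated data.

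The members and all lists were chosen with earlier results of these data known. Every member is given; values are in full for those called, the sensors, Xbp1, Hspa5 and Derl3. From each other list, the genes called, or at most the 3 with the smallest p, are named. No protein sequences were used here. Xbp1 forms were told apart by the lengths of the 2 deposited transcripts, and the segment was located in a GENCODE vM21 transcript. Promoters are RefSeq's (GRCm38.p6). The values of 1 marker gene are not reported here.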

Additional observations from a re-analysis of the deposited data

How the results depend on the processing

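Fkbp11 was called lower under each of 15 other settings (adjusted p 1.83e-19 to 0.00809), Sec61b under 5 of them and Syvn1 was called higher under 1, while the other 31 members were called under none. Sec61b was lost, leaving 1 member called lower, under upper-quartile scaling (adjusted p = 0.0513), total-count scaling (0.0713), limma-voom (0.0550), limma on log2(FPKM + 1) (0.0861) and on log2(FPKM + 0.1) (0.0880), and with the length trend (0.114). Leaving out 1 liver gave 1 to 2 members lower and 0 to 1 higher, 117 to 327 of all genes higher and 94 to 393 lower, and a median of the members between -0.40 and 0.03, positive only without K307R replicate 1. Over all genes, 178 higher and 189 lower became 188 and 124 with total-count scaling, 368 and 370 with DESeq2, 94 and 69 with FPKM + 1, 91 and 70 with FPKM + 0.1, and 410 and 419 with no filter on low counts. The median of all genes moved between -0.02 and 0.09 (log2).

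Deviations of same-numbered livers correlated at -0.0027 over all genes tested, and at 0.575 over the members. Of the members, 18 were higher in replicate 2 of both genotypes, against 26.9% of all genes tested. The labels do not say whether a replicate number is shared between genotypes, and these values cannot settle it. With a replicate block, which leaves 1 residual degree of freedom, 1 member was called lower (Sec61b adjusted p = 0.0524) and Ern1 was at -0.14.

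Signs turned only in members that had not been called. Ern1 was at -0.0069 with RLE scaling, -0.0091 with DESeq2, -0.15 with limma-voom, -0.037 with FPKM + 1, -0.068 with FPKM + 0.1 and -0.096 with the length trend. Manf was at 0.012 with upper-quartile and 0.044 with total-count scaling, and at 0.051 and 0.051 with the FPKM fits. Eif2ak3 was at 0.0065 and Hsp90b1 at 0.035 with total-count scaling, and Hsp90b1 at 0.044 and 0.044 with the FPKM fits. With the length trend Atf6 was at -0.020, Canx at -0.042 and Sdf2l1 at 0.023. Without 1 liver the ranges were Ern1 -0.87 to 0.55, Atf6 -0.25 to 0.36, Eif2ak3 -0.64 to 0.34, Hspa5 -0.21 to 0.30, Hsp90b1 -0.092 to 0.013, Hyou1 -0.27 to 0.87, Canx -0.025 to 0.12, Dnajb9 -0.41 to 0.81, Dnajc3 -0.26 to 0.053, Sdf2l1 -0.89 to 0.37, Manf -0.40 to 0.29, Creld2 -0.51 to 1.09, Pdia4 -0.031 to 0.55, Herpud1 -0.80 to 0.067, Syvn1 -0.46 to 1.49 and Derl3 -1.63 to 0.41. The causes were not tested.

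The Xbp1 spliced share differed by -11.5 to -1.55 percentage points without 1 liver and by -6.56 in FPKM. With 2 livers a genotype, a single liver can decide a value here. Derl3 had the fewest reads of the members, 9 to 42 a liver.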
